A study of Mus musculus with 6 samples.

Results

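Elastic fibre and microfibril genes were examined in the knee of mice that lack Frzb, an extracellular antagonist of WNT signaling. The list held 10 genes (Eln, Fbn1, Fbn2, Mfap2, Mfap4, Mfap5, Efemp1, Efemp2, Emilin1 and Fbln5). A gene was measured where a deposited probe set of the array carried its symbol and no other in the annotation used. By this rule 8 genes were measured by 10 of the 30618 probe sets, and Fbn2 and Mfap5 had more than 1 probe set each. Fbn1 and Efemp2 were not analysed here. RNA came from tibial articular cartilage and subchondral bone of 6-week-old male C57Bl/6J mice, cut out as 1 piece at the growth plate, and each array held a single joint of 1 mouse. The Frzb-/- group was animals 14 and 17, a constitutive knockout backcrossed onto C57Bl/6J, and the wild-type group was animals 6-1, 8-1 and 9-1. Animal 6 also carries the label Frzb-/-. According to the paper, a presumed knockout whose array clustered with those of wild-type mice proved heterozygous when its genotype was determined again. The authors left it out and do not give its number, and animal 6 is therefore shown apart. The labels name no treatment for any group.

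Elastic fibres consist of a core of cross-linked elastin on a scaffold of fibrillin microfibrils. Small microfibril-associated proteins, fibulins and EMILINs sit on the microfibrils or at their boundary with elastin and guide the deposition and cross-linking of tropoelastin, the soluble precursor. Such fibres are abundant in arteries, skin, lung and elastic ligaments, whereas in cartilage a fine microfibril mesh surrounds the chondrocytes, and microfibrils also hold latent transforming growth factor beta.

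All values are log2 expression values from RMA (robust multi-array average), so a difference of 1 is a doubling of signal, and levels of different probe sets are not compared. Array medians lay between 7.32 and 7.45. A probe set was called when its log2 fold change exceeded 1 in size and limma's moderated two-sided test gave a p below 0.01 after Benjamini-Hochberg adjustment over all 30618 probe sets. The brighter Frzb probe set, 1416658_at, gave 7.02 and 6.42 in animals 14 and 17 and 6.93 in animal 6, against 10.02, 10.79 and 10.16 in wild-type mice, so all 3 labelled mice had low Frzb mRNA. Over all probe sets, however, animal 6 correlated at 0.940 to 0.957 with the Frzb-/- arrays and at 0.983 to 0.991 with the wild-type arrays. Col2a1, the main collagen of cartilage, averaged 14.70 in Frzb-/- mice and 14.67 in wild-type mice, and the osteoblast marker Col1a1 averaged 14.83 and 14.56. The skeletal muscle marker Acta1 averaged 14.48 and 14.31, so bright readings alone do not fix what the pieces held.

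Of the 8 measured genes, 4 were higher in Frzb-/- than in wild-type mice: Eln, Mfap2, Mfap4 and Mfap5. They encode elastin and the 3 microfibril-associated proteins on the list. None was lower (0 of 8, also at an unadjusted limma p under 0.05), and Fbn2, Efemp1, Emilin1 and Fbln5 were not called. Among all 13817 genes, each at its brightest probe set, 3.03% were called higher and 6.02% lower. By probe set, 5 of 10 were called higher, against 2.34% of all probe sets. The median log2 fold change of the 8 genes was 0.96, against 0.04 over all genes. Both Frzb-/- arrays lay above every wild-type array at 5 of the 8 genes, against 31.0% of all genes.

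Eln encodes tropoelastin. Its probe set 1420855_at read 10.88 and 10.67 in Frzb-/- mice and 8.91 in animal 6, against 8.93, 8.91 and 8.88 in wild-type mice. The wild-type mice and animal 6 were almost identical, and both Frzb-/- mice stood well above them, with 1.74 between the lower Frzb-/- array and the highest wild-type array. The means were 10.77 ± 0.15 (SD, n = 2) in Frzb-/- mice and 8.91 ± 0.02 (SD, n = 3) in wild-type mice. The log2 fold change was 1.86 ± 0.12 (SE), with 95% limits of 1.58 and 2.15, which is 3.64-fold (limma, adjusted p = 0.000938).

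Mfap2 encodes MAGP1, a small glycoprotein of microfibrils that binds fibrillins and tropoelastin. At 1417359_at it read 10.56 and 10.39 in Frzb-/- mice and 9.37 in animal 6, against 9.19, 8.95 and 9.06 in wild-type mice. The Frzb-/- and wild-type arrays were separated by 1.19, and animal 6 lay above all 3 wild-type mice but far nearer to them than to the Frzb-/- mice. The means were 10.47 ± 0.12 (SD, n = 2) in Frzb-/- mice and 9.07 ± 0.12 (SD, n = 3) in wild-type mice, a log2 fold change of 1.40 ± 0.13 (SE), with limits of 1.09 and 1.71 (2.64-fold, limma, adjusted p = 0.0012).

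Mfap4 encodes a fibrinogen-related glycoprotein that binds elastin, fibrillins and collagen. At 1424010_at both Frzb-/- mice read 9.52 and animal 6 read 7.06, against 7.92, 7.37 and 7.14 in wild-type mice. The Frzb-/- arrays were alike and 1.60 above the highest wild-type array, the wild-type mice were spread over 0.78, and animal 6 was below all of them. The means were 9.52 ± 0.01 (SD, n = 2) in Frzb-/- mice and 7.48 ± 0.40 (SD, n = 3) in wild-type mice. The log2 fold change of 2.04 ± 0.23 (SE), with limits of 1.51 and 2.58, was the largest of the 8 genes (4.13-fold, limma, adjusted p = 0.00166), but its interval overlapped those of Eln, Mfap2 and Mfap5, and differences between the genes were not tested.

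Mfap5 encodes MAGP2, a relative of MAGP1 that binds fibrillins. Its brighter probe set, 1418454_at, read 9.45 and 9.62 in Frzb-/- mice and 7.80 in animal 6, against 8.25, 7.98 and 7.37 in wild-type mice. Its other probe set, 1449082_at, read 8.70 and 9.03 in Frzb-/- mice and 7.02 in animal 6, against 7.34, 7.08 and 6.78 in wild-type mice. At both probe sets the groups did not overlap, animal 6 fell within the wild-type range, and the wild-type mice kept the order 6-1, 8-1, 9-1 from high to low. The log2 fold changes were 1.67 ± 0.25 (SE, limits 1.08 and 2.26, 3.18-fold, limma, adjusted p = 0.00441) and 1.80 ± 0.19 (SE, limits 1.34 and 2.26, 3.48-fold, adjusted p = 0.00157), so the 2 probe sets of Mfap5 gave like differences.

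Eln and Mfap2 stayed called when any single mouse was left out, although both did so narrowly without animal 17. In that fit the log2 fold changes were 1.97 for Eln and 1.49 for Mfap2. Mfap4 and the brighter Mfap5 probe set missed the threshold without animal 8-1, 14 or 17, at adjusted p between 0.0105 and 0.0163 for Mfap4 and between 0.0185 and 0.0369 for Mfap5, while their log2 fold changes stayed between 1.87 and 2.27 and between 1.42 and 1.86 over all 5 such fits.

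**Figure D1:**
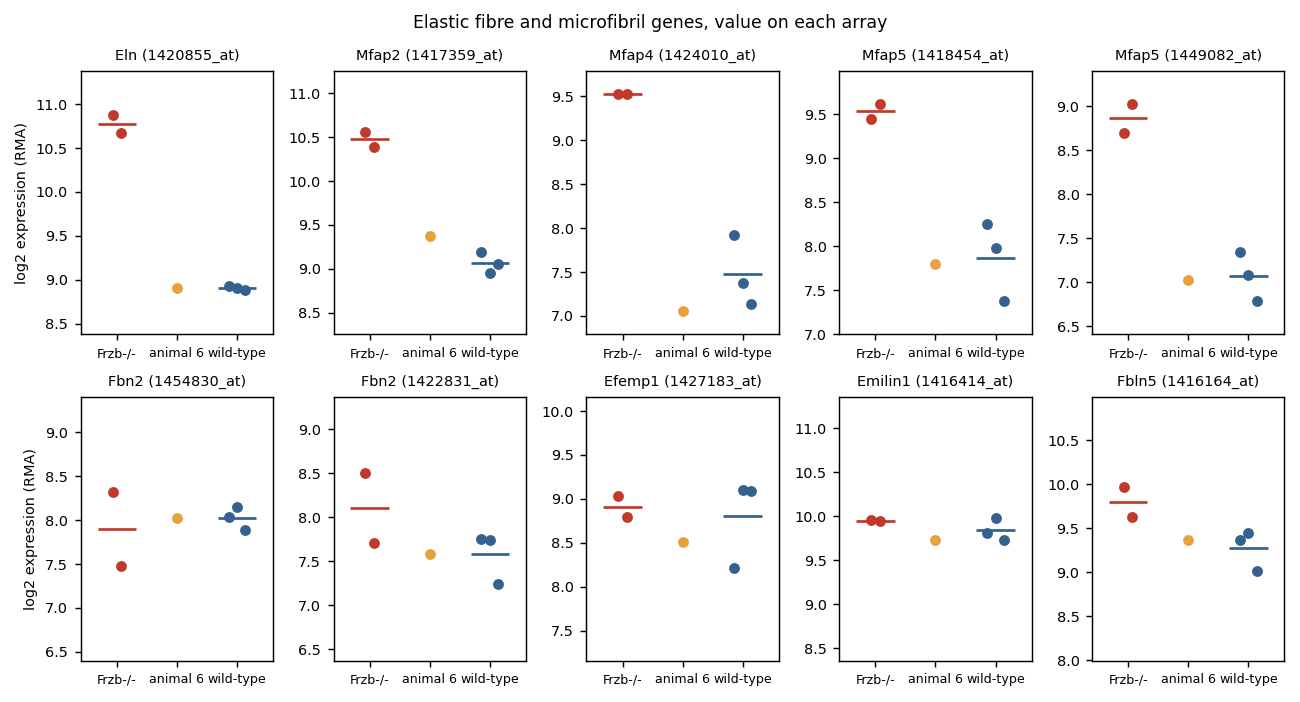
Log2 expression on each array for the 10 probe sets of the 8 measured genes, with Frzb-/- mice (animals 14 and 17) on the left, animal 6 in the middle and wild-type mice on the right. Each point is 1 mouse, each line is a group mean, and every panel spans 3 log2 units. The Frzb-/- mice lie at least 1.19 above all wild-type mice at the 5 probe sets of the upper row.

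The members that were not called fell into 3 patterns. Fbln5, a fibulin that binds tropoelastin and the cross-linking enzyme LOXL1, read 9.97 and 9.63 in Frzb-/- mice and 9.37 in animal 6, against 9.37, 9.45 and 9.02 in wild-type mice. The groups were separated by only 0.18. Its log2 fold change was 0.52 ± 0.18 (SE), with limits of 0.10 and 0.94 (limma, adjusted p = 0.0713).

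Emilin1 encodes an elastin-microfibril interface protein. It read 9.95 and 9.94 in Frzb-/- mice and 9.73 in animal 6, against 9.81, 9.98 and 9.73 in wild-type mice. Efemp1, which encodes fibulin-3, read 9.03 and 8.79 in Frzb-/- mice and 8.51 in animal 6, against 8.22, 9.10 and 9.09 in wild-type mice. In both genes the groups overlapped. For Efemp1 it was wild-type animal 6-1 that stood apart from the other wild-type mice. The log2 fold changes were 0.11 ± 0.13 (SE, limits -0.19 and 0.41, adjusted p = 0.574) for Emilin1 and 0.11 ± 0.28 (SE, limits -0.55 and 0.77, adjusted p = 0.802) for Efemp1 by limma, so for neither gene did the interval reach a log2 change of 1 in either direction.

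Fbn2 encodes fibrillin-2, the fibrillin best known from developing tissues. Its brighter probe set, 1454830_at, read 8.32 and 7.48 in Frzb-/- mice and 8.02 in animal 6, against 8.04, 8.15 and 7.89 in wild-type mice. The other, 1422831_at, read 8.50 and 7.71 in Frzb-/- mice and 7.58 in animal 6, against 7.76, 7.74 and 7.24 in wild-type mice. At both, the 2 Frzb-/- mice lay apart from each other, with animal 14 above and animal 17 below the highest wild-type mouse. The gap between them was 0.83 and 0.79, and 3.25% of all probe sets had an absolute gap of 0.79 or more between these 2 mice, with a median of 0.19. The log2 fold changes of -0.13 ± 0.24 (SE, limits -0.70 and 0.44, adjusted p = 0.731) and 0.53 ± 0.27 (SE, limits -0.10 and 1.16, adjusted p = 0.191) differed in sign (limma). Without animal 17 the brighter probe set gave 0.29 and without animal 14 it gave -0.54.

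**Figure D2:**
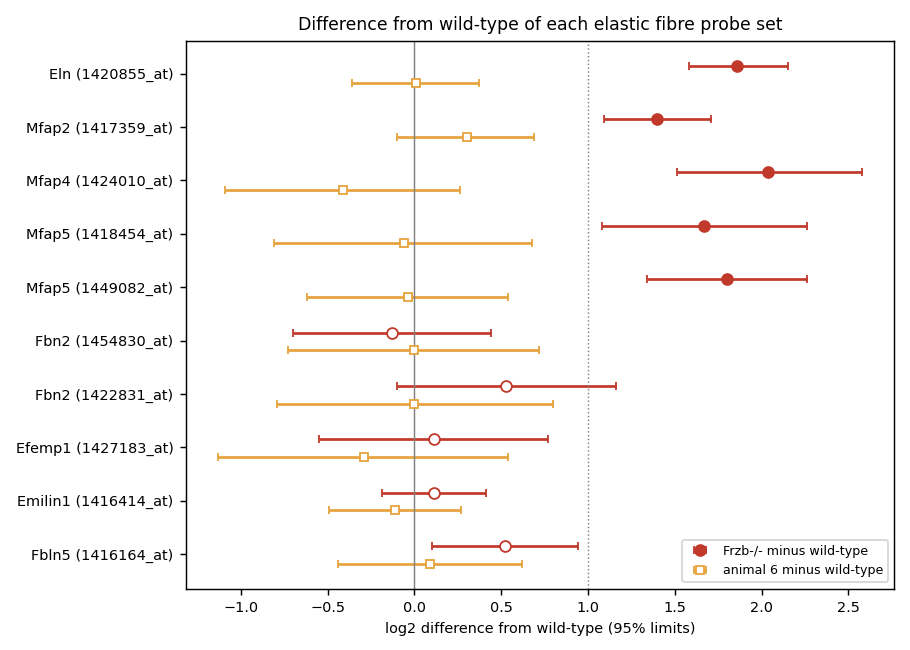
Log2 difference from wild-type mice with 95% limits from limma for each probe set, with Frzb-/- mice (circles) drawn above animal 6 (squares). Filled circles were called, and the dotted line marks a log2 difference of 1. All 5 filled circles have limits above 1, whereas every interval of animal 6 includes 0.

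None of the 8 measured genes lies on the chromosome of Frzb, which is chromosome 2. Promoter sequence from RefSeq (GRCm38.p6, 250 bases before to 50 after a start) was read for Mfap2, which was called, and for Efemp1, Emilin1 and Fbln5, which were not. Eln, Mfap4, Mfap5 and Fbn2 had no entry in the promoter sequences used. Mfap2 was thus the only called gene with an entry, and called and uncalled genes are not compared. The 100 bases just before the annotated gene are printed for Mfap2 (chr4:141010324-141010423, plus strand), Efemp1 (chr11:28853054-28853153, plus strand) and Fbln5 (chr12:101819120-101819219, minus strand), 5′ to 3′ on the strand of the gene, with GGGCGG or its reverse complement CCGCCC in capitals.
Mfap2: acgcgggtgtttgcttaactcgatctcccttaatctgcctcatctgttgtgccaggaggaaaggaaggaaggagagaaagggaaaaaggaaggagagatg
Efemp1: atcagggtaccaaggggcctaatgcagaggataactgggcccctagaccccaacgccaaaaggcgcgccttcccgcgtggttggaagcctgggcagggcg
Fbln5: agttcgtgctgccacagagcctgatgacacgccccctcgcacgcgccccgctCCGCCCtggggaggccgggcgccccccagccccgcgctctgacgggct
The TCF/LEF motifs ATCAAAG and TTCAAAG and the TATA box TATAAA, searched on both strands of the 300-base windows, were found in 0 of the 6 entries of these 4 genes. Of all 32851 entries 3.73%, 5.14% and 13.6% held them. The SP/KLF motif GGGCGG was present in 3 of the 6 entries, 1 each of Mfap2, Efemp1 and Fbln5, against 35.7% of all entries. The entry of Emilin1 and the other entries of Mfap2 and Fbln5 did not hold it. The Mfap2 stretch printed is from the entry without the motif, and the match in Efemp1 lies downstream of the stretch printed. A match in these letters is a description only.

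Animal 6 was compared with the wild-type mice in a fit of all 6 arrays, in which the spread of this single array is taken from the other groups. Even Frzb was not called in this fit, at -3.39 (1416658_at) and -3.05 (1448424_at). A lack of calls here therefore does not place a gene at the wild-type level. None of the 10 probe sets was called, and none had an unadjusted p under 0.05 (limma, 0 of 30618 probe sets called and 2197 with an unadjusted p under 0.05). The difference of animal 6 from wild-type mice was 0.01 for Eln, with limits of -0.36 and 0.37, and 0.30 for Mfap2, with limits of -0.10 and 0.69. It was -0.41 for Mfap4, with limits of -1.09 and 0.26, and -0.06 and -0.04 for the 2 probe sets of Mfap5. Animal 6 lay between the lowest and the highest wild-type array at 7 of the 10 probe sets, against 42.9% of all probe sets.

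The Frzb-/- mice were also set against animal 6 itself. Eln, Mfap4 and the dimmer Mfap5 probe set were called higher in Frzb-/- mice, by 1.86, 2.46 and 1.84 on the log2 scale (limma, adjusted p = 0.0043, 0.00599 and 0.00766), which is 3 of 10 probe sets against 0.787% of all probe sets. Mfap2 differed by 1.11 (adjusted p = 0.0106) and the brighter Mfap5 probe set by 1.73 (adjusted p = 0.018), and neither passed. This comparison and that with wild-type mice share the arrays of animals 14 and 17. When animal 6 was instead counted with the other mice labelled Frzb-/-, no probe set was called (limma, 0 called and 3534 with an unadjusted p under 0.05), and the log2 fold changes were 1.25 for Eln and 1.03 for Mfap2, each with an adjusted p of 0.428.

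Other genes of elastic fibre assembly, turnover and binding were taken from a list of 49, of which 46 had a probe set of their single symbol. In Frzb-/- mice 12 of the 46 were higher and 2 lower than in wild-type mice (beside 3.03% and 6.02% of all genes), 32 were not called, and the median log2 fold change was 0.59. All 4 genes listed as other fibulins were higher, with a median of 1.57. Hmcn1, the giant hemicentin-1, read 8.00 and 7.74 in Frzb-/- mice and 6.17 in animal 6, against 5.46, 5.99 and 5.80 in wild-type mice (log2 fold change 2.12, limits 1.68 and 2.55, limma, adjusted p = 0.00108). Its wild-type values lay below the lowest array median of 7.32, and it dropped out when only probe sets above the median were fitted. Fbln1 had 3 probe sets, and the dimmer ones were not called. The brightest read 9.21 and 9.18 in Frzb-/- mice and 7.64 in animal 6, against 7.81, 7.71 and 7.37 in wild-type mice (1.57, limma, adjusted p = 0.00132). Fbln2 (1.57, adjusted p = 0.00776) and Fbln7 (1.09, adjusted p = 0.00282) also passed. The groups did not overlap in any of these 4 genes, which adds little to their calls. Both Frzb-/- arrays lay above every wild-type array at 31.0% of all genes. Only Hmcn1 still passed without animal 17, and only Fbln1 and Hmcn1 without animal 14. Fbln2 was also lost without animal 8-1, and Fbln7 without animal 6-1.

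Vcan, which encodes versican, a proteoglycan that binds fibulins and fibrillin, read 10.02 and 9.75 in Frzb-/- mice and 8.78 in animal 6, against 8.04, 8.01 and 8.02 in wild-type mice (1.86, limma, adjusted p = 0.000938). It passed whichever single mouse was left out, and animal 6 lay 0.76 above the wild-type mean. Of the small proteoglycans, Dcn gave 0.75 (adjusted p = 0.0127) and Bgn 0.51 (adjusted p = 0.0304), and Hspg2, which encodes perlecan, gave 0.65 (adjusted p = 0.02).

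Of the latent transforming growth factor beta binding proteins, which attach to microfibrils, Ltbp4 (1.43, adjusted p = 0.00166) and Ltbp2 (1.31, adjusted p = 0.00119) were higher in limma's test. Ltbp3 gave 0.86 (adjusted p = 0.00763) and Ltbp1 0.59 (adjusted p = 0.0186), both short of the fold threshold. Ltbp2 and Ltbp4 no longer passed without animal 17 and passed with any other single mouse left out. Among the ligands, Tgfb3 was higher (1.04, adjusted p = 0.00717), Tgfb2 gave 0.93 (adjusted p = 0.0429) at its brightest of 4 probe sets, with a dimmer one called at 1.17, and Tgfb1 gave -0.49 (adjusted p = 0.0358). Tgfb3 passed without animal 6-1 and was lost without any other single mouse.

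Among the enzymes that cross-link elastin, Loxl1 had 2 probe sets, and the dimmer one was not called. The brighter one was higher (1.06, limits 0.68 and 1.44, limma, adjusted p = 0.00473). Its call was lost whichever single mouse was left out. Lox gave 0.58 (adjusted p = 0.0218) at its brightest of 3 probe sets, and a dimmer one passed at 1.07. Loxl3 gave 0.57 (adjusted p = 0.0293) and Loxl4 0.18 (adjusted p = 0.63). Of the other groups, 1 of 4 EMILINs and multimerins was higher (Emilin3, 1.08, adjusted p = 0.0042), as was 1 of 8 ADAMTS and ADAMTS-like genes (Adamtsl4, 1.14, adjusted p = 0.0016). Emilin3 was lost without animal 6-1, 8-1 or 14, and Adamtsl4 without animal 17. Adamtsl1 gave 0.85 (adjusted p = 0.0147) at its brighter probe set, and its dimmer one was called at 1.83. None of the 8 receptor genes was called (limma, 0 of 8, with 4 at an unadjusted p under 0.05). The widest values were 0.77 for Itgb5 (adjusted p = 0.0067) and -1.10 for Itgb3 (adjusted p = 0.0249).

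The proteases that can cut elastin moved in both directions. Elane, which encodes neutrophil elastase, read 9.94 and 9.37 in Frzb-/- mice and 11.94 in animal 6, against 12.03, 12.54 and 12.43 in wild-type mice (log2 fold change -2.68, limma, adjusted p = 0.00104). Prtn3, proteinase 3 of the same neutrophil granules, gave -2.29 (adjusted p = 0.00148). Mmp2, a gelatinase of connective tissue cells, was higher by 1.31 (adjusted p = 0.00152) and was lost without animal 8-1 or 17. The macrophage and osteoclast enzymes Ctss, Ctsk and Mmp9 gave -0.20, 0.29 and -0.10 and were not called. The pathway count of 12 fell to 7 without animal 8-1 or animal 14 and to 3 without animal 17 (Hmcn1, Emilin3 and Vcan), whereas Elane and Prtn3 passed whichever single mouse was left out.

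**Figure D3:**
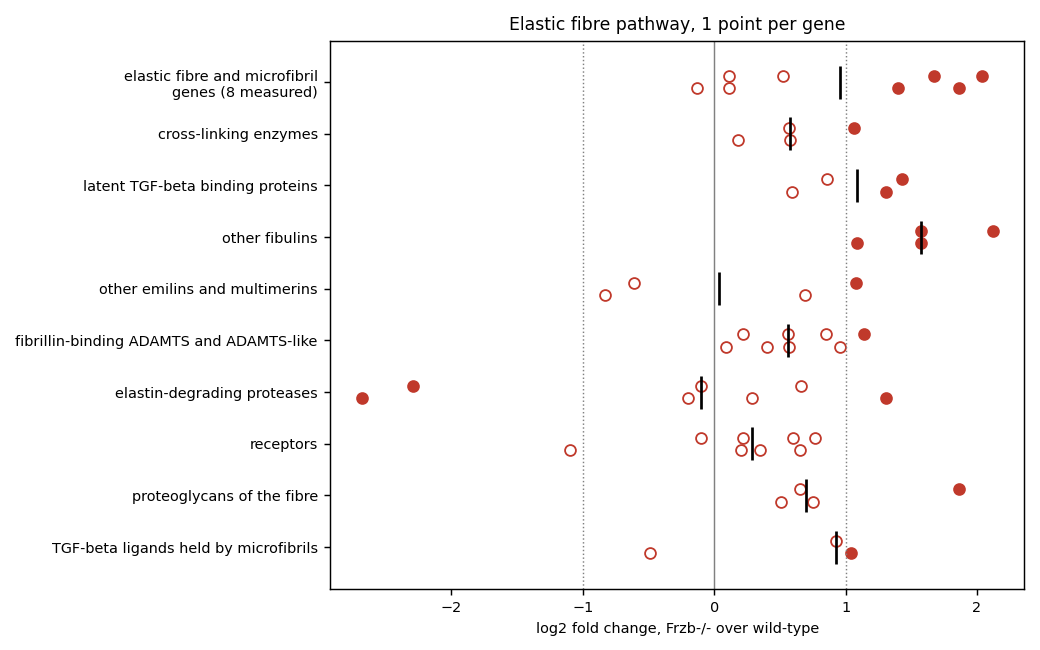
Log2 fold change of Frzb-/- over wild-type mice for the 8 measured elastic fibre and microfibril genes (top row) and for 46 further genes of the pathway by role, with 1 point per gene at its brightest probe set. Filled points were called, black bars are row medians and dotted lines mark a log2 fold change of 1 in each direction. All 4 other fibulins are filled on the right, and Elane and Prtn3 are the only filled points on the left.

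Since the tissue pieces held several cell types, fewer cells of a type and less RNA per cell cannot be told apart. The mean log2 level of the 8 measured genes was 9.71 and 9.51 in Frzb-/- mice and 8.60 in animal 6, against 8.72, 8.74 and 8.52 in wild-type mice. Some markers of cell types that make elastic fibres in other tissues were higher as well. Among all genes, 3.03% were called higher and 6.02% lower, and the median log2 fold change was 0.04. The mean of 10 smooth muscle and pericyte markers was 10.67 and 10.76 in Frzb-/- mice and 9.48 in animal 6, against 9.86, 9.79 and 9.52 in wild-type mice, with 3 of 10 higher (Myh11 1.79, Tagln 1.44 and Acta2 1.24) and a median log2 fold change of 0.97. Acta2 passed only at the brighter of its 2 probe sets, and a dimmer Rgs5 probe set passed (1.71) although its brightest did not.

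The mean of 8 fibroblast markers was 10.69 and 10.59 in Frzb-/- mice and 9.86 in animal 6, against 9.79, 9.79 and 9.58 in wild-type mice, with 4 of 8 higher, led by Scara5 (1.88) and Dpt (1.77), and a median of 0.95. Dpp4 went the other way, at -0.66 (limma, adjusted p = 0.0329), and a dimmer of its 4 probe sets was called lower at -1.46. Dimmer probe sets of Col3a1 (1.71) and Pdgfra (1.37) were called higher, although the brightest ones of these genes were not. The 4 fibroblast calls fell to 1 (Scara5) without animal 8-1 or 14 and to 2 (Dpt and Scara5) without animal 9-1. Of 6 tendon markers, Thbs4 was higher (1.25) and the median was 0.88. Among the fits that left out 1 mouse, the Thbs4 call held only without animal 6-1, where Tnmd and Kera passed too. Without animal 17 none of the fibroblast, smooth muscle or tendon markers passed in limma's test, although 7 of 8, 9 of 10 and 4 of 6 kept an unadjusted p under 0.05. Adipocyte markers, of which 3 were measured, had a mean of 12.82 and 12.79 in Frzb-/- mice and 11.43 in animal 6, against 12.24, 11.90 and 11.69 in wild-type mice. Adipoq was higher (1.21, limma, adjusted p = 0.00824), and its call held only without animal 6-1 among the fits that left out 1 mouse. None of the 9 chondrocyte markers (median -0.01), 5 osteoblast markers (median 0.16) or 8 endothelial markers (median 0.46) passed, of which 2, 1 and 7 had an unadjusted p under 0.05. The 2 chondrocyte markers went opposite ways (Matn1 0.54 and Matn3 -0.86), and of the 7 endothelial markers Vwf was lower (-0.55) and the rest higher.

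In the opposite direction, all 7 neutrophil markers were lower in Frzb-/- mice, with a list mean of 11.85 and 11.34 in Frzb-/- mice and 13.56 in animal 6, against 13.40, 13.82 and 13.82 in wild-type mice. All 5 erythroid markers were lower as well, with a median of -2.86, and so were 3 of 4 B cell markers. By comparison, 6.02% of all genes were called lower. Without animal 17, 2 of the 7 neutrophil markers passed, and without animal 8-1, 4 did. The part of these cell populations in the elastic fibre values was not tested.

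**Figure D4:**
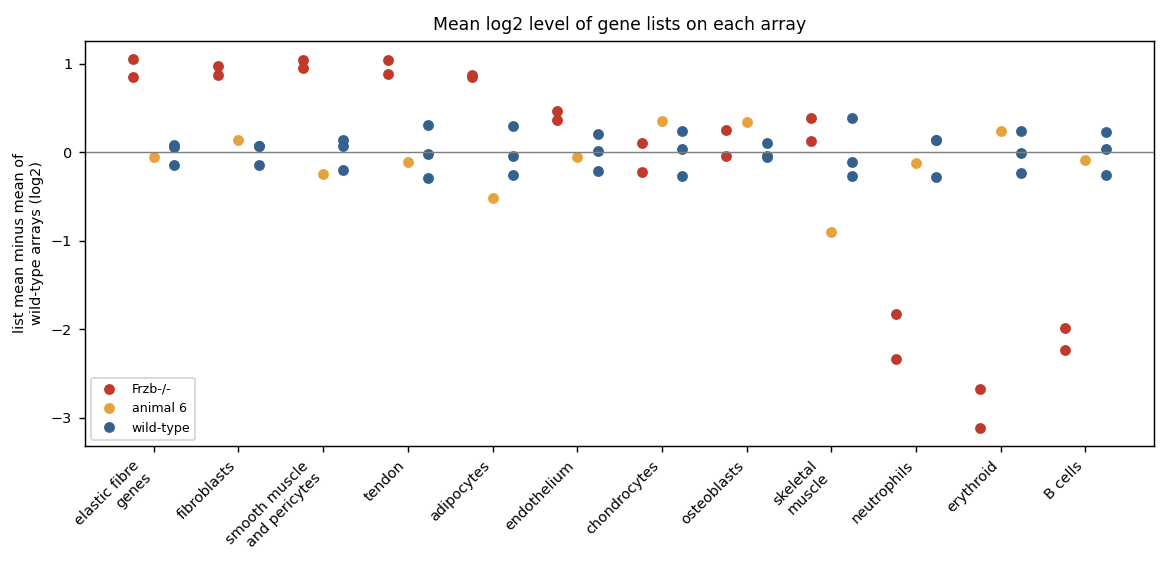
Mean log2 level of the 8 measured elastic fibre genes and of marker lists on each array, less the mean of the wild-type arrays, with Frzb-/- mice on the left, animal 6 in the middle and wild-type mice on the right of each list. Frzb-/- mice lie above wild-type mice for the elastic fibre genes, fibroblasts, smooth muscle, tendon, adipocytes and endothelium, and below them for neutrophil, erythroid and B cell lists, and animal 6 is low in skeletal muscle markers.

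Skeletal muscle markers were bright on every array, with means of 13.99 and 14.25 in Frzb-/- mice and 12.96 in animal 6, against 14.25, 13.75 and 13.59 in wild-type mice. The Frzb-/- and wild-type mice overlapped in these markers, while animal 6 was below all other mice.

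Some genes outside the list ran close to its median course over the 6 arrays. That course, as the median deviation of the 8 genes from their own wild-type means, was 1.09 and 0.83 in Frzb-/- mice and -0.03 in animal 6, against 0.05, 0.12 and -0.12 in wild-type mice. The 5 nearest of all other genes by Euclidean distance were Kctd17 (0.12), Crip2 (0.14), Antxr1 (0.14), Dagla (0.15) and Tmem204 (0.16). Their log2 fold changes, which this choice fixes, lay between 0.87 and 1.04. Antxr1, a collagen-binding receptor, read 11.76 and 11.62 in Frzb-/- mice and 10.60 in animal 6, against 10.69, 10.73 and 10.54 in wild-type mice.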

How the data were processed

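Each of 6 mice gave RNA for a single Affymetrix array. The authors deposited log2 expression values that they had made with RMA (affy 1.20.0 in their processing notes), which subtracts background, equalizes the arrays by quantiles and summarizes probes into probe sets. The table holds 30618 probe sets and no detection calls. According to the paper, control probe sets and those called absent were removed beforehand. Shares of all probe sets or all genes given here refer to the 30618 deposited probe sets, not to the whole array. Of these, 25090 had a single gene symbol in the annotation, 677 had several genes and 4851 had none, and genes were named only from those with 1. Each gene was represented by its brightest probe set on average across the arrays.

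Values were fitted with the lmFit and eBayes functions of limma 3.58.1 under R 4.3.3 (two-sided, Benjamini-Hochberg over all probe sets), with 2 Frzb-/- and 3 wild-type arrays. Animal 6 entered a fit with 3 groups. Python 3.11.15, pandas 2.3.3 and matplotlib 3.10.9 were used for tables and figures. The fit was also run on simulated independent normal noise with some probe sets shifted. That setting is simpler than these tissue samples, and no result here rests on it. The labels call the arrays separate mice, arrays have no read depth, and their small number limits the precision. The members and lists were chosen with earlier results of these data known. All 10 members are named at every probe set, with up to 10 pathway genes in each direction by fold change, others of a group where it is described, and up to 2 passing and 2 bright genes of each marker list. The 5 genes nearest to the median course of the members are also named. The alternatives were all 3 labelled mice, each mouse left out, cyclic loess, probe sets above the median, trended and robust moderation, array weights and no fold threshold. Protein sequences were not used here.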

Additional observations from a re-analysis of the deposited data

Results flagged for a closer look

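Mfap2 (1417359_at) in animal 6 read 9.37, against 9.19, 8.95 and 9.06 in wild-type mice. It was picked out because this array, which the main comparison leaves out, lay above every wild-type array at a gene that was higher in Frzb-/- mice. The difference of 0.30 from the wild-type mean had limits of -0.10 and 0.69 and was not called. In this fit of a single array even Frzb, at -3.39, was not called.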

How the results depend on the processing

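With all 3 mice labelled Frzb-/-, 0 members were higher, 0 probe sets were higher and 0 lower, 0 pathway genes were higher and 0 lower, and the members' median was 0.71. Efemp1 then gave -0.03, and -0.02 with array weights. When each mouse was left out in turn, 2 to 4 members were higher (2, Eln and Mfap2, without animal 8-1, 14 or 17), 97 to 570 probe sets were higher and 335 to 1506 lower, and 3 to 11 pathway genes were higher, while Fbn2 at 1454830_at lay between -0.54 and 0.29 and Efemp1 between -0.18 and 0.26. The numbers without a single mouse are 298 higher and 676 lower without animal 8-1, 355 higher without animal 14, and 97 higher and 335 lower without animal 17. Among probe sets above the median 415 were higher and 1004 lower, and with no fold threshold 1304 were higher. The 4 members called were the same under cyclic loess, trended and robust moderation and array weights, and 0 members were lower under any alternative. Of the member values under all alternatives, 93 kept their direction and side of the threshold, 12 kept their direction and no longer passed, and 5 changed direction, all of them at Fbn2 or Efemp1. No paired analysis was possible because the groups share no replicate numbers. With 2 Frzb-/- arrays, leaving out animal 14 or 17 leaves a lone array, whose spread is taken from the wild-type mice. The cause of the differing counts was not tested. RMA values can understate changes near background. No detection calls were used here beyond the authors' own removal of absent probe sets.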
